A study of Mus musculus with 12 samples.

Results

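The pyruvate dehydrogenase complex and the proteins that switch it were examined in single myofibers of the mouse extensor digitorum longus muscle. The 10 genes were taken by name from the 55367 gene symbols of the RNA-seq tables: the subunit genes Pdha1, Pdhb, Dlat, Dld and Pdhx, the kinase genes Pdk1, Pdk2 and Pdk4, the phosphatase gene Pdp1, and Mpc1, a gene of the mitochondrial pyruvate carrier. All 10 were listed in every sample and passed the limit on low expression. The 3 groups had 4 samples each, from C57BL/6J mice for which no genotype and no treatment is labelled: fibers of young mice of 3 to 4 months, and, from aged mice of 26 to 28 months, fibers with normal Fluo-4 staining and fibers with abnormal Fluo-4 staining. Fluo-4 is a fluorescent calcium indicator, and the stained aged fibers were picked apart under a fluorescence stereomicroscope. The study describes the abnormal fibers in aged males, and the number of fibers and mice behind a sample is not given in the sources used here. Values are TPM, read numbers that are adjusted for transcript length and sum to 1000000 in each sample, so that levels of different genes can be compared, and a change is relative to the other RNA of the sample. The read depth is unknown.

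Pyruvate made by glycolysis enters the mitochondrion through a carrier built of Mpc1 and Mpc2, and the pyruvate dehydrogenase complex turns it into acetyl-CoA for the tricarboxylic acid cycle. The complex joins a thiamine-dependent E1 enzyme (Pdha1 and Pdhb), an E2 core that carries lipoyl groups (Dlat), the E3 dehydrogenase (Dld) and the protein that holds E3 to the core (Pdhx). Pyruvate dehydrogenase kinases phosphorylate the E1 alpha subunit and switch the complex off, which spares glucose during fasting in muscle, and the phosphatases switch it on again. RNA levels do not measure this phosphorylation.

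The samples had the markers of fast myofibers. The 8 myofiber markers summed to 95287 to 133414 TPM, and Myh4, the myosin of the fastest fibers, made up 96.9% to 98.6% of the myosin heavy chain TPM of young, 93.7% to 99.2% of Fluo-4 normal and 98.9% to 99.7% of Fluo-4 abnormal samples. Among 5 adipocyte markers, Adipoq, Plin1, Cidec and Lep were at 0 in all 12 samples, and Fabp4 was at 15.4 to 28.6 TPM in young, 32.7 to 109 TPM in Fluo-4 normal and 8.28 to 64.4 TPM in Fluo-4 abnormal samples. The 6 endothelial markers summed to 5.07 to 11.8, 5.95 to 26.1 and 2.98 to 11.1 TPM in the same order, and 4 Schwann cell markers to 0.773 to 1.81, 1.42 to 6.32 and 3.57 to 7.45 TPM. The 6 immune markers summed to 1.80 to 3.02 TPM in young, 5.68 to 15.5 TPM in Fluo-4 normal and 9.32 to 16.2 TPM in Fluo-4 abnormal samples. In the same order, 5 erythroid markers summed to 33.1 to 121, 119 to 482 and 44.4 to 236 TPM, and 6 fibroblast markers to 19.4 to 38.0, 25.3 to 82.4 and 13.6 to 63.8 TPM. Fluo-4 normal replicate 2 had the lowest Myh4 share (93.7%) and the highest Fabp4 level of the 12 samples. Within its group it had the highest endothelial, Schwann cell, immune, erythroid and fibroblast sums. It was also the highest Fluo-4 normal sample for Pdha1, Pdhb, Dlat, Dld and Pdhx. The part of these other cells in the results was not tested. In these samples, fewer fibers of a type and less RNA per fiber cannot be told apart.

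The proximal promoters of 3 members are shown because they stand for the 3 patterns described here: Dlat was lower in Fluo-4 abnormal fibers, Pdk2 overlapped between all groups, and Pdk4 varied most among samples. Each is the 250 bases before the annotated start, 5′ to 3′ on the strand of the gene, from the RefSeq table of build GRCm38.p6. The regions are chr9:50659781-50660030 for Dlat, chr11:95041372-95041621 for Pdk2 and chr6:5496279-5496528 for Pdk4, all on the minus strand. Capitals mark GGGCGG (a GC box, 239 bases before the start) in Dlat and CACGTG (an E-box, 126 bases before the start) in Pdk2.
Dlat: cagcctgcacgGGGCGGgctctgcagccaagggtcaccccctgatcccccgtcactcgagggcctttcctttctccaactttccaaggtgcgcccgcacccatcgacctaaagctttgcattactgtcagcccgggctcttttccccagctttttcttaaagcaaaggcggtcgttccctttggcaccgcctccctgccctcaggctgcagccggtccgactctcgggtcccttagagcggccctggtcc
Pdk2: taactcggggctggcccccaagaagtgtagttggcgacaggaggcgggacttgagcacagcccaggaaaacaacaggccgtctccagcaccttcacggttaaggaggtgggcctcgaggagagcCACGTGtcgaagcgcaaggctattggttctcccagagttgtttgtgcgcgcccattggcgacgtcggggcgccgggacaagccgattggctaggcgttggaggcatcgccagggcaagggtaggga
Pdk4: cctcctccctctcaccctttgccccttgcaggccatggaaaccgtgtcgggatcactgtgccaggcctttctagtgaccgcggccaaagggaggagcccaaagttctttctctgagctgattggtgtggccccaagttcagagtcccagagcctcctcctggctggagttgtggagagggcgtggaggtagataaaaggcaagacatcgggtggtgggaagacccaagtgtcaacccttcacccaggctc
These letters were searched on both strands in 32851 promoters of the table, over the whole sequence listed for each and not only the 250 bases before the start. GGGCGG was in 35.7% of them and in 6 of the 12 promoters listed for members. These belong to 5 of the 9 members that had an entry (Pdhb, Dlat, Pdhx, Pdk1 and Mpc1). CACGTG was in 7.15% of all promoters and in 1 of the 12, that of Pdk2. TCAAGGTCA, an element bound by the estrogen-related receptors, was in 0.423% of all promoters, and GTAAACA, a forkhead motif, in 3.65%, and neither was found in a member. The Pdk4 window held none of the 4 motifs. It had 6 CG dinucleotides, against 15 for Dlat and 19 for Pdk2. Pdp1 had no entry.

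In young fibers, Mpc1 was the most abundant of the 10 genes at 1141 ± 33.9 TPM (mean ± SD, n = 4, as for all group values), followed by Pdk2 at 398 ± 9.65 TPM. The subunits followed in the order Pdhb (275 ± 8.46 TPM), Pdha1 (231 ± 12.7 TPM), Dld (162 ± 13.1 TPM) and Dlat (93.3 ± 3.98 TPM), with no overlap between neighbours. The phosphatase Pdp1 (71.3 ± 2.597 TPM), the E3-binding protein Pdhx (51.4 ± 3.03 TPM), Pdk4 (50.1 ± 26.01 TPM) and Pdk1 (11.8 ± 2.51 TPM) were the lowest. The samples of Pdk4 overlapped those of Pdp1 and Pdhx. One kinase message was thus more abundant per length than that of any subunit, and this held in each of the 12 samples. The order of Dlat and Pdp1 differed between groups: Dlat was above Pdp1 in all young samples, the genes overlapped in Fluo-4 normal fibers, and Pdp1 (75.5 to 116 TPM) was above Dlat (48.2 to 68.3 TPM) in Fluo-4 abnormal fibers.

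**Figure D1:**
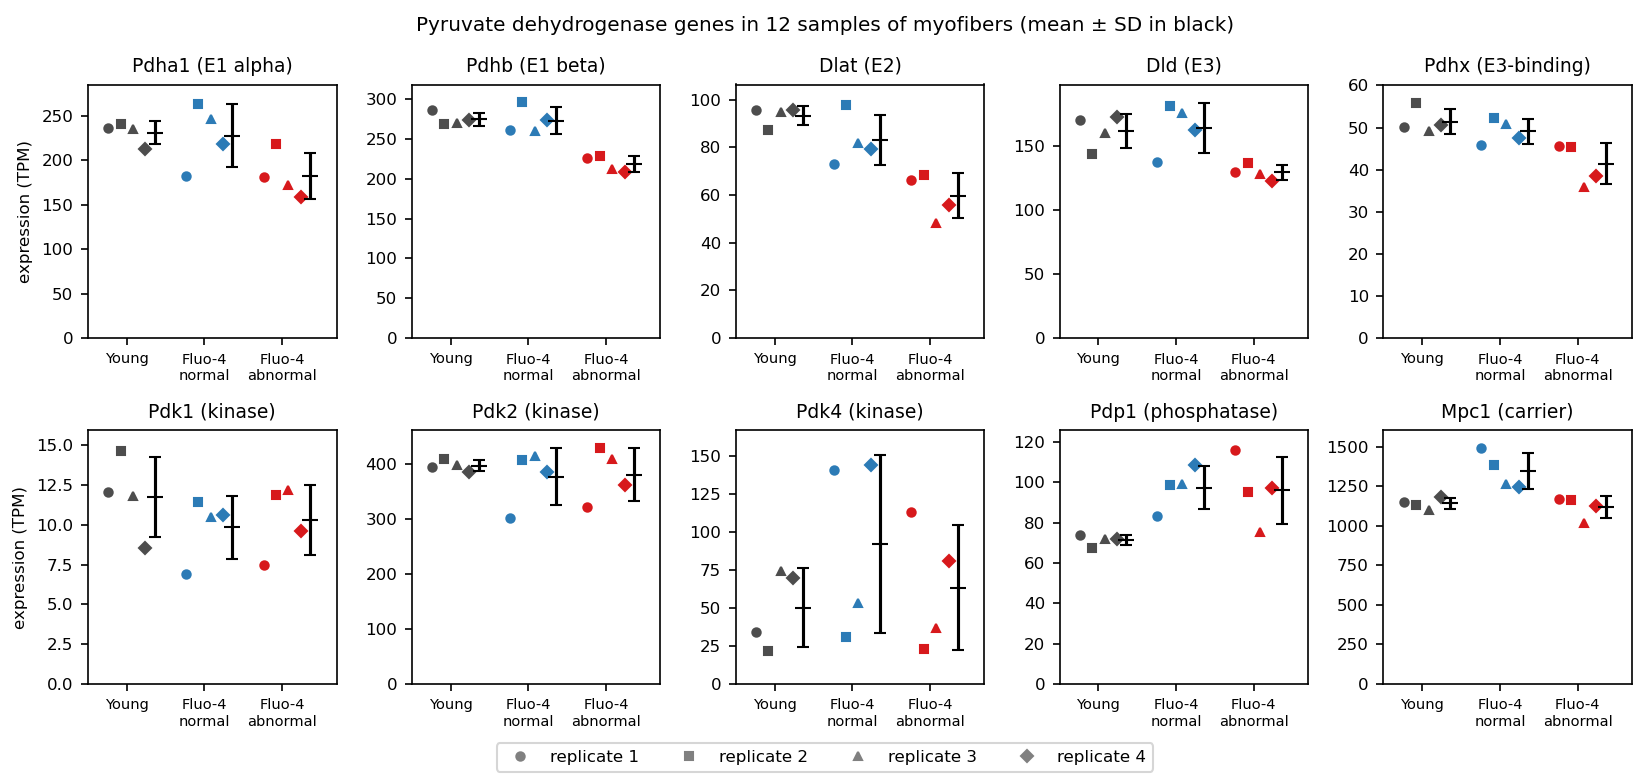
Expression of the 10 genes in TPM (y axes, from 0) in young, Fluo-4 normal and Fluo-4 abnormal samples, with 1 point per sample, marker shape for the replicate number, and the mean ± SD in black. The Fluo-4 abnormal samples of Pdhb, Dlat, Dld and Pdhx lie below all other samples, whereas those of Pdk2 lie among them and Pdk4 spreads from 21.7 to 144 TPM.

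Fluo-4 abnormal and Fluo-4 normal fibers were compared to ask what sets the abnormal fibers apart at the same age. Genes of the complex were lower in the abnormal group, with adjusted p-values under 0.05 for Pdhb, Dlat and Dld, and the carrier gene Mpc1 was lower too. No kinase and no phosphatase gene passed the test. Thus 4 of the 10 genes fell and 0 rose, where 1.99% of all 14428 genes tested fell and 7.36% rose (9.35% in either direction). At an unadjusted p under 0.05, 6 of the 10 passed, all lower, where 3693 of all 14428 genes passed in either direction. With the replicate number of the aged samples as a block, 3 of the 10 fell: Pdhb and Mpc1 passed again, Pdk4 passed (adjusted p = 0.040), and Dlat (0.059) and Dld (0.061) did not. The test was limma on log2(TPM + 1), with Benjamini-Hochberg adjustment over all genes, and fold changes are on that scale. The median change of all genes tested was 0.10 on the log2 scale, and scaling by trimmed means (TMM-type factors) moved it to 0.00.

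The E1 enzyme, which removes carbon dioxide from pyruvate, is built from Pdha1 and Pdhb. Pdhb (chr14:14296739-14304802 of GRCm39, plus strand) was at 287, 268, 269.6 and 274 TPM in young replicates 1 to 4, at 262, 296, 259.7 and 274 TPM in Fluo-4 normal fibers and at 226, 229, 212 and 209 TPM in Fluo-4 abnormal fibers. All Fluo-4 abnormal samples were below all others, and the young and Fluo-4 normal samples overlapped. The log2 change against Fluo-4 normal fibers was -0.32 ± 0.06 (SE), with an adjusted p of 0.0068, and the gene lost this call in 1 of 23 alternatives, the fit with the Myh4 share as a covariate (-0.23, adjusted p = 0.10). Pdhb has a processed pseudogene, Gm6123, that is 97.0% identical over 1079 of its 1522 bases, but this was listed at 0.397 to 1.504 TPM.

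Pdha1 (chrX:158904237-158921426, minus strand), the E1 alpha subunit that the kinases phosphorylate, was at 236, 241, 236 and 213 TPM in young, 183, 264, 246 and 218 TPM in Fluo-4 normal and 182, 219, 172 and 158 TPM in Fluo-4 abnormal samples. The Fluo-4 abnormal samples overlapped both other groups, since Fluo-4 abnormal replicate 2 (218.8 TPM) was above Fluo-4 normal replicates 1 and 4 (218.5 TPM) and young replicate 4. Fluo-4 normal replicate 1 was about as low as Fluo-4 abnormal replicate 1. The log2 change was -0.31 ± 0.11 (SE) with an adjusted p of 0.10, which does not pass. Without Fluo-4 normal replicate 1 the change was -0.42 and the adjusted p 0.034. The ratio of Pdhb to Pdha1 within a sample was 0.25 ± 0.09 on the log2 scale in young, 0.27 ± 0.19 in Fluo-4 normal and 0.27 ± 0.14 in Fluo-4 abnormal fibers, so the E1 pair kept the same mean ratio within the spread.

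Dlat (chr9:50543457-50571277, minus strand), the lipoyl-bearing E2 core, had the largest change among the subunits. It was at 95.7, 87.3, 94.6 and 95.4 TPM in young, 73.1, 97.8, 81.9 and 79.1 TPM in Fluo-4 normal and 66.4, 68.3, 48.2 and 55.7 TPM in Fluo-4 abnormal samples. The last 4 were below all others. The log2 change was -0.47 ± 0.11 (SE) with an adjusted p of 0.018. The call was lost without Fluo-4 normal replicate 2 (adjusted p = 0.057), without Fluo-4 abnormal replicate 4 (adjusted p = 0.056) and with the replicate number as a block (adjusted p = 0.059). It was also lost with only the aged groups in the fit (adjusted p = 0.055) and with the Myh4 share (-0.24, adjusted p = 0.29), 5 of 23 alternatives in all.

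Dld (chr12:31379323-31401452, minus strand) encodes the E3 dehydrogenase, which also serves the 2-oxoglutarate and branched-chain complexes. Its levels were 170.2, 144, 160.0 and 173 TPM in young, 137, 181, 176 and 163 TPM in Fluo-4 normal and 129.9, 136, 128 and 123 TPM in Fluo-4 abnormal samples. The groups of aged fibers did not overlap, with less than 1 TPM between Fluo-4 normal replicate 1 and Fluo-4 abnormal replicate 2. The log2 change was -0.34 ± 0.09 (SE) with an adjusted p of 0.030. The call was lost with the replicate block (adjusted p = 0.061) and without any 1 of Fluo-4 abnormal replicates 1 to 4 or Fluo-4 normal replicates 2 to 4 (adjusted p = 0.052 to 0.086). It was also lost with only the aged groups in the fit (adjusted p = 0.064) and with the Myh4 share (-0.08, adjusted p = 0.58), 10 of 23 alternatives in all.

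Pdhx (chr2:102849769-102904060, minus strand), which tethers E3 to the core, was at 50.02, 55.8, 49.1 and 50.6 TPM in young, 45.8, 52.2, 50.7 and 47.6 TPM in Fluo-4 normal and 45.6, 45.4, 36.0 and 38.6 TPM in Fluo-4 abnormal samples. The abnormal samples were the lowest of the 12, but replicates 1 and 2 lay just under the lowest Fluo-4 normal sample. The log2 change was -0.25 ± 0.09 (SE) with an adjusted p of 0.093. Its exons share 89 bases with the opposite-strand gene Apip, listed at 35.9 to 47.2 TPM, and the library kit does not mark the strand. The exons of Pdha1, Pdhb, Dld, Pdk2 and Mpc1 also overlap genes of the opposite strand (Map3k15, Pxk, Lamb1, Samd14 and 4930506C21Rik), which were listed at 0 to 12.6 TPM, and Dlat shares 228 exon bases with the opposite-strand Gm67647, which was not analysed here. Counting Mpc1, 5 of the 10 genes had Fluo-4 abnormal samples that were all below the Fluo-4 normal ones and 0 had all above, where 2.54% and 11.5% of all genes tested did.

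Mpc1 (chr17:8501736-8516498, plus strand) was at 1152, 1131, 1101 and 1182 TPM in young, 1488, 1385, 1264 and 1242 TPM in Fluo-4 normal and 1169, 1163, 1016 and 1122 TPM in Fluo-4 abnormal samples. The Fluo-4 normal samples were above all others, whereas the young and Fluo-4 abnormal samples overlapped. The log2 change between the aged groups was -0.27 ± 0.07 (SE) with an adjusted p of 0.038. It passed neither without young replicate 1, 2 or 3, nor without Fluo-4 normal replicate 1 or 2, nor without Fluo-4 abnormal replicate 2, 3 or 4 (adjusted p = 0.051 to 0.092). The call was lost in 13 of 23 alternatives, which also include all listed genes (adjusted p = 0.055), only the aged groups in the fit (0.11), sample weights (0.069), the Myh4 share (0.11) and the block with TMM-type factors (0.056). The level of Mpc1 is uncertain, because the processed pseudogene Mpc1-ps (chr12:110824999-110825328) is identical over 261 of the 1128 bases of Mpc1 and was itself listed at 483 to 815 TPM. Its partner Mpc2, for which the search found no pseudogene but which shares exon bases with the opposite-strand gene Dcaf6 (25.3 to 40.8 TPM), was at 722, 663, 658 and 743 TPM in young, 768, 706, 591 and 709 TPM in Fluo-4 normal and 550.3, 467, 409.96 and 462 TPM in Fluo-4 abnormal samples. Mpc2 was lower in all Fluo-4 abnormal samples than in all others, by -0.56 ± 0.10 (SE) on the log2 scale against Fluo-4 normal fibers (adjusted p = 0.0044).

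None of the 3 kinase genes passed between the aged groups in the fit of the 12 samples, at an adjusted or an unadjusted p under 0.05. Pdk2 (chr11:94914929-94932242, minus strand), the main kinase message of these fibers, was at 395, 410.3, 399 and 387 TPM in young, 303, 408, 415 and 385 TPM in Fluo-4 normal and 323, 429.7, 409.8 and 363 TPM in Fluo-4 abnormal samples. All groups overlapped, and replicate 1 was the lowest in both aged groups. The log2 change between the aged groups was 0.02, with a 95% interval from -0.21 to 0.24 (adjusted p = 0.95). Its direction was lower with TMM-type factors (-0.21, adjusted p = 0.16), with scaling that left out the mitochondrially-encoded genes (-0.045) and with sample weights (-0.024), none of which passed.

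Pdk1 (chr2:71703488-71734202, plus strand), a kinase gene known to respond to hypoxia, was at 6.93 to 14.6 TPM over the 12 samples, with a log2 change of 0.06 ± 0.19 (SE, adjusted p = 0.88) that was -0.15 with TMM-type factors and -0.0022 with sample weights. Pdp1 (chr4:11957712-11966468, minus strand), whose product removes the phosphates, differed by -0.03 ± 0.11 (SE, adjusted p = 0.90), and Fluo-4 abnormal replicates 1 and 3 were its highest and lowest aged samples at 116 and 75.5 TPM. Of the other regulators, Pdk3 and the phosphatase Pdp2 stayed below 0.6 TPM in all samples, and Pdpr, which regulates the phosphatase, was at 11.6 to 29.7 TPM and did not pass in any comparison.

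**Figure D2:**
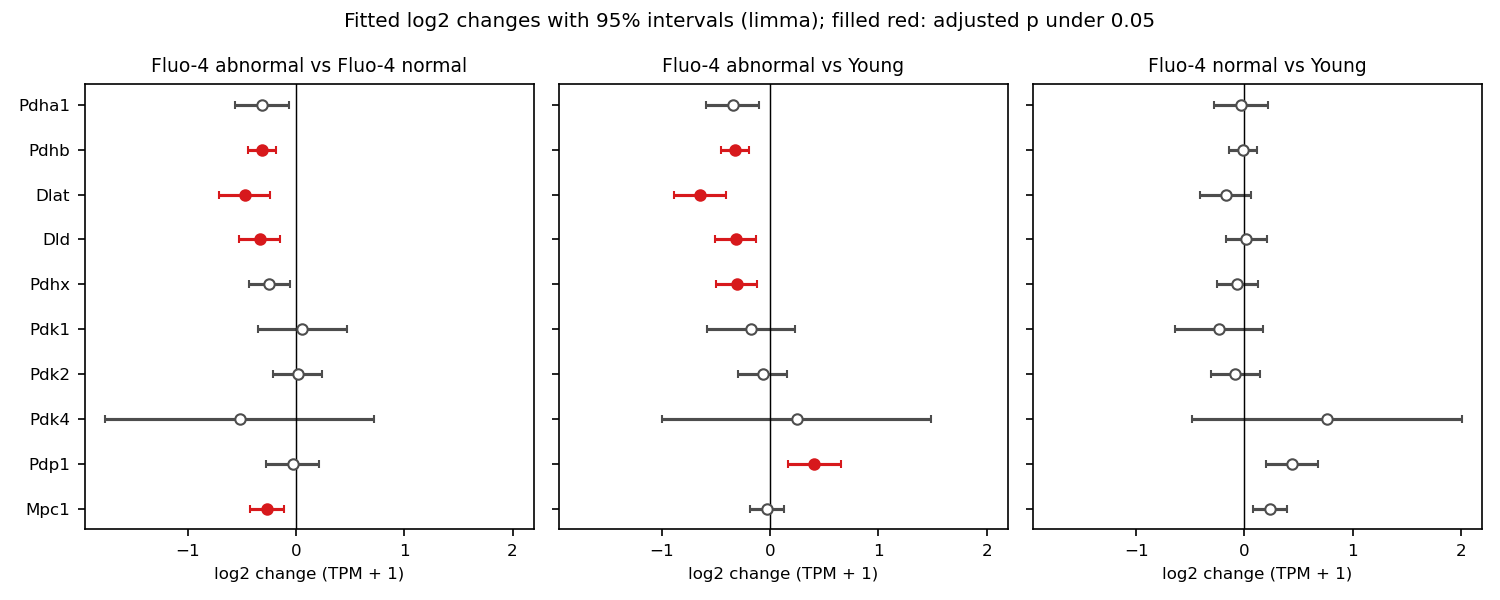
Fitted log2 change of each gene on the log2(TPM + 1) scale (x axis) with its 95% interval, for Fluo-4 abnormal against Fluo-4 normal, Fluo-4 abnormal against young and Fluo-4 normal against young fibers, with filled red points at adjusted p under 0.05. Between the aged groups, the 5 subunits lie between -0.47 and -0.25 and Pdk2 at 0.02, and the interval of Pdk4 is the widest.

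Pdk4 (chr6:5483097-5496339, minus strand), the kinase induced by fasting and fatty acids, varied more than any other member. It was at 34.4, 21.7, 74.3 and 69.9 TPM in young, 141, 30.7, 53.6 and 144 TPM in Fluo-4 normal and 113, 22.9, 36.6 and 81.1 TPM in Fluo-4 abnormal samples. All groups overlapped, and the coefficient of variation within a group was 51.9% to 65.4%, against 2.43% to 13.6% for Pdk2. The log2 change between the aged groups was -0.52 ± 0.58 (SE) with an adjusted p of 0.61, and was -1.61 (adjusted p = 0.19) with the Myh4 share as a covariate. It ranged from -0.95 without Fluo-4 normal replicate 2 to -0.13 without Fluo-4 abnormal replicate 2, and none of the fits without 1 sample passed. Aged samples with the same number deviated together over 5994 genes, and in aged samples of the same number Pdk4 was lower in the Fluo-4 abnormal one in 4 of 4 pairs, at 0.562 to 0.803 times the Fluo-4 normal level. With the replicate number as a block the same change had an SE of 0.09 and an adjusted p of 0.040, so that Pdk4 passed, in a fit where 1.61% of all genes fell. In that fit Pdhb (adjusted p = 0.028) and Mpc1 (adjusted p = 0.044) passed as well. The sources do not say that a number stands for a mouse.

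The 5 subunits and Mpc1 were also lower in 4 of 4 pairs. For Pdha1, Dlat, Dld and Pdhx the decrease was the smallest in pair 1, where Pdha1 was at 0.994, Dlat at 0.908, Dld at 0.946 and Pdhx at 0.995 times the Fluo-4 normal level. In pair 3 these ratios were 0.697, 0.589, 0.728 and 0.709. Pdhb ranged from 0.761 to 0.865 over the pairs, and Mpc1 from 0.786 in pair 1 to 0.904 in pair 4. Pdk2 was lower in 2 of 4 pairs, at 0.942 to 1.07 times, and Pdk1 in 1 of 4.

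**Figure D3:**
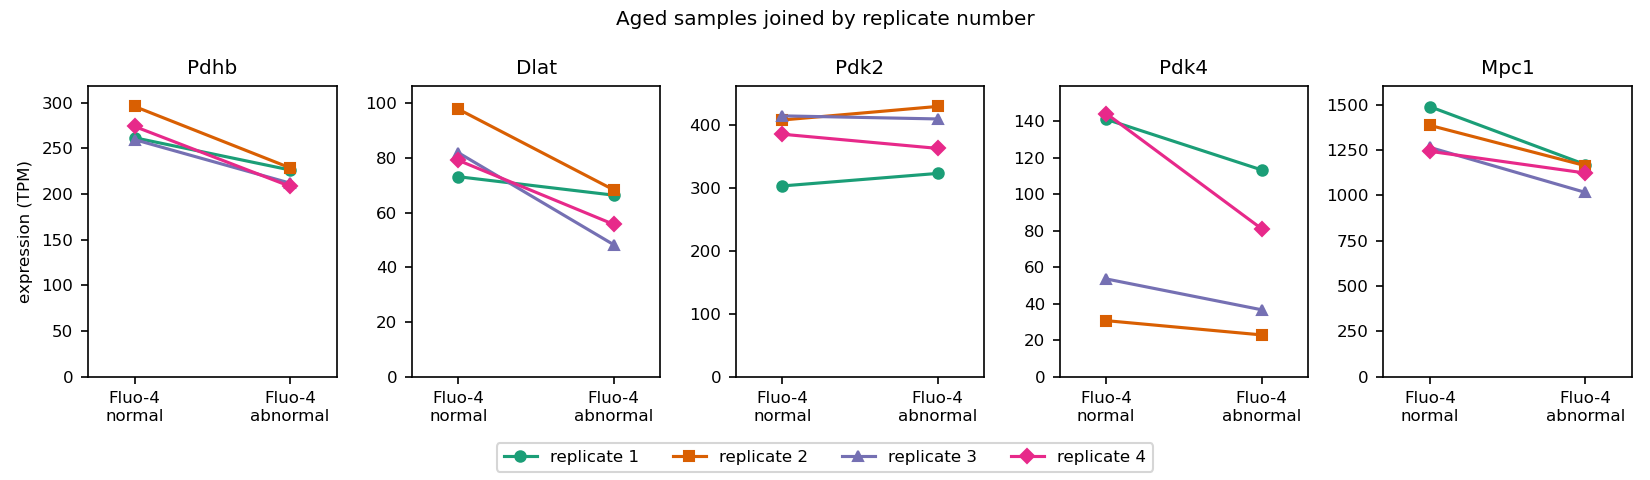
TPM of Pdhb, Dlat, Pdk2, Pdk4 and Mpc1 (y axes, from 0) in Fluo-4 normal and Fluo-4 abnormal samples, with lines joining aged samples of the same replicate number. All lines of Pdhb, Dlat, Pdk4 and Mpc1 go down, those of Pdk4 from levels between 30.7 and 144 TPM, and those of Pdk2 go up in 2 pairs and down in 2.

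Ratios within a sample do not depend on how that sample was scaled, and are described without a test. The mean log2 level of the 3 kinases minus that of the 5 subunits was -1.22 ± 0.21 in young, -1.02 ± 0.39 in Fluo-4 normal and -0.83 ± 0.29 in Fluo-4 abnormal fibers, and the groups overlapped. For Pdk2 alone against the subunits, a ratio chosen after the values were seen, the log2 values were 1.49, 1.60, 1.55 and 1.497 in young, 1.37, 1.46, 1.61 and 1.57 in Fluo-4 normal and 1.55, 1.89, 2.10 and 1.90 in Fluo-4 abnormal samples. Fluo-4 abnormal replicates 2 to 4 were above all other samples, and replicate 1 was among them. The difference of the means between the aged groups was 0.36, or 1.28 times.

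The ratio of Pdhx to Dlat, whose products sit together in the core of the complex, was -0.86 ± 0.14 on the log2 scale in young, -0.75 ± 0.11 in Fluo-4 normal and -0.52 ± 0.07 in Fluo-4 abnormal fibers. The last group, at -0.59 to -0.42, was above all samples of the other groups. Of the TPM of the 4 kinase genes, Pdk2 made up 82.2% to 91.8% in young, 67.2% to 90.6% in Fluo-4 normal and 72.8% to 92.4% in Fluo-4 abnormal samples. The Pdk4 share was 4.86% to 15.3%, 6.81% to 31.2% and 4.92% to 25.5%, respectively, and the groups overlapped.

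**Figure D4:**
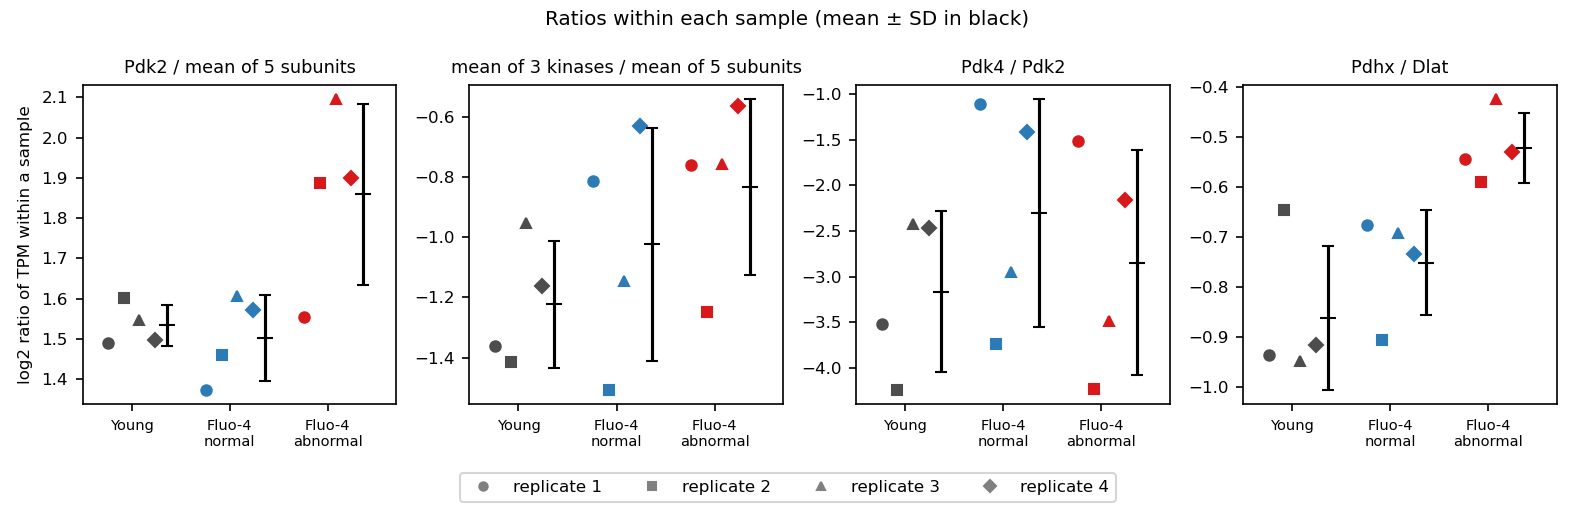
Log2 ratios of TPM within each sample (y axes, which do not start at 0) for Pdk2 and for the mean of 3 kinases against the mean of the 5 subunits, for Pdk4 against Pdk2 and for Pdhx against Dlat, with the mean ± SD in black. The Fluo-4 abnormal samples lie above the others for Pdhx to Dlat, at -0.59 to -0.42, and 3 of 4 do for Pdk2 to the subunits.

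Fluo-4 abnormal and young fibers were compared next; this comparison shares the abnormal samples with the one above. Pdhb (-0.33 ± 0.06 SE, adjusted p = 0.0055), Dlat (-0.65 ± 0.11, adjusted p = 0.0036), Dld (-0.32 ± 0.09, adjusted p = 0.040) and Pdhx (-0.31 ± 0.09, adjusted p = 0.042) were lower in Fluo-4 abnormal fibers. The phosphatase gene Pdp1 was higher (0.41 ± 0.11, adjusted p = 0.040), although with TMM-type factors it was 0.24 and did not pass (adjusted p = 0.26). In all, 4 genes fell and 1 rose, where 2.41% of all genes fell and 6.09% rose (8.5% in either direction). The calls of Pdhb and Dlat held in all 21 alternatives run.

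Pdha1 was lower by -0.35 ± 0.11 with an adjusted p of 0.081, and passed without Fluo-4 normal replicate 1 (adjusted p = 0.035) or Fluo-4 abnormal replicate 2 (adjusted p = 0.048). Dld did not pass without any 1 of young replicates 1, 3 and 4, Fluo-4 abnormal replicates 1 to 4 and Fluo-4 normal replicate 4 (adjusted p = 0.059 to 0.12). Pdhx did not pass without any 1 of the young samples, Fluo-4 normal replicates 2 to 4 and Fluo-4 abnormal replicates 3 and 4 (adjusted p = 0.052 to 0.11). Pdp1 did not pass without any 1 of the young samples, Fluo-4 normal replicates 2 to 4 and Fluo-4 abnormal replicates 1, 2 and 4 (adjusted p = 0.051 to 0.10). The samples of Pdhb, Dlat, Dld and Pdhx were all below, and those of Pdp1 all above, the young ones, where 3.95% and 12.2% of all genes were. Pdk1, Pdk2, Pdk4 and Mpc1 overlapped between the groups, and Mpc1 differed by -0.03 ± 0.07 (adjusted p = 0.84). Mpc2 fell by 0.57 on the log2 scale (SE 0.10, adjusted p = 0.0036).

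Fluo-4 normal and young fibers were compared to ask what differs with age in fibers of normal staining. None of the 10 genes passed limma's test at an adjusted p under 0.05, where 0.561% of all genes rose and 0.589% fell (1.15% in either direction). At an unadjusted p under 0.05, 1865 of all 14428 genes passed, and 2 of the 10 did. These 2 were Pdp1 and Mpc1. Pdp1 was at 73.8, 67.6, 71.9 and 71.8 TPM in young, 83.0, 98.9, 98.9 and 109 TPM in Fluo-4 normal and 116, 95.1, 75.5 and 97.2 TPM in Fluo-4 abnormal samples. Each aged sample was above each young one. The log2 change in Fluo-4 normal fibers was 0.44 ± 0.11 (SE, adjusted p = 0.084), and it passed with TMM-type factors (adjusted p = 0.048), with a filter of 5 TPM (adjusted p = 0.043), with only these groups in the fit (adjusted p = 0.040), with sample weights (adjusted p = 0.022) and without Fluo-4 abnormal replicate 3 (adjusted p = 0.046).

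Mpc1 was 0.23 ± 0.07 higher in Fluo-4 normal than in young fibers with an adjusted p of 0.15, and its groups did not overlap. Thus 2 of the 10 genes had Fluo-4 normal samples all above the young ones, where 3.03% of all genes did and 7.98% did not overlap in either direction. The 5 subunits differed by -0.17 (Dlat) to 0.02 (Dld), with adjusted p-values from 0.56 to 0.97. The 95% interval of Pdhb, from -0.14 to 0.12, was the narrowest. Pdk4 was 0.76 ± 0.58 higher (adjusted p = 0.63). The log2 ratio of Pdp1 to Pdk2, chosen after the values were seen, was -2.48 ± 0.08 in young and -1.95 ± 0.12 in Fluo-4 normal samples, without overlap, and -1.998 ± 0.41 in Fluo-4 abnormal samples.

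The Myh4 share of myosin was higher in all Fluo-4 abnormal samples than in all young ones. The aged groups overlapped in this share, with Fluo-4 normal replicate 1 (99.2%) above Fluo-4 abnormal replicate 2 (98.9%), and so did the Fluo-4 normal and young samples. With this share as a covariate, 0 of the 10 genes passed between the aged groups by limma, where 820 of all 14428 genes did. At an unadjusted p under 0.05, 3 of the 10 and 3663 of all genes passed. Dlat differed by -0.24 (adjusted p = 0.29), Dld by -0.08 (adjusted p = 0.58) and Pdha1 by -0.04 (adjusted p = 0.87). Against young fibers Pdhb (adjusted p = 0.020), Dlat (adjusted p = 0.012) and Pdp1 (adjusted p = 0.033) passed in that fit. With TMM-type factors, all 5 subunits and Mpc1 passed between the aged groups, at -0.70 to -0.47. Over all genes, 1062 rose and 287 fell as deposited, and 306 rose and 542 fell with TMM-type factors.

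**Figure D5:**
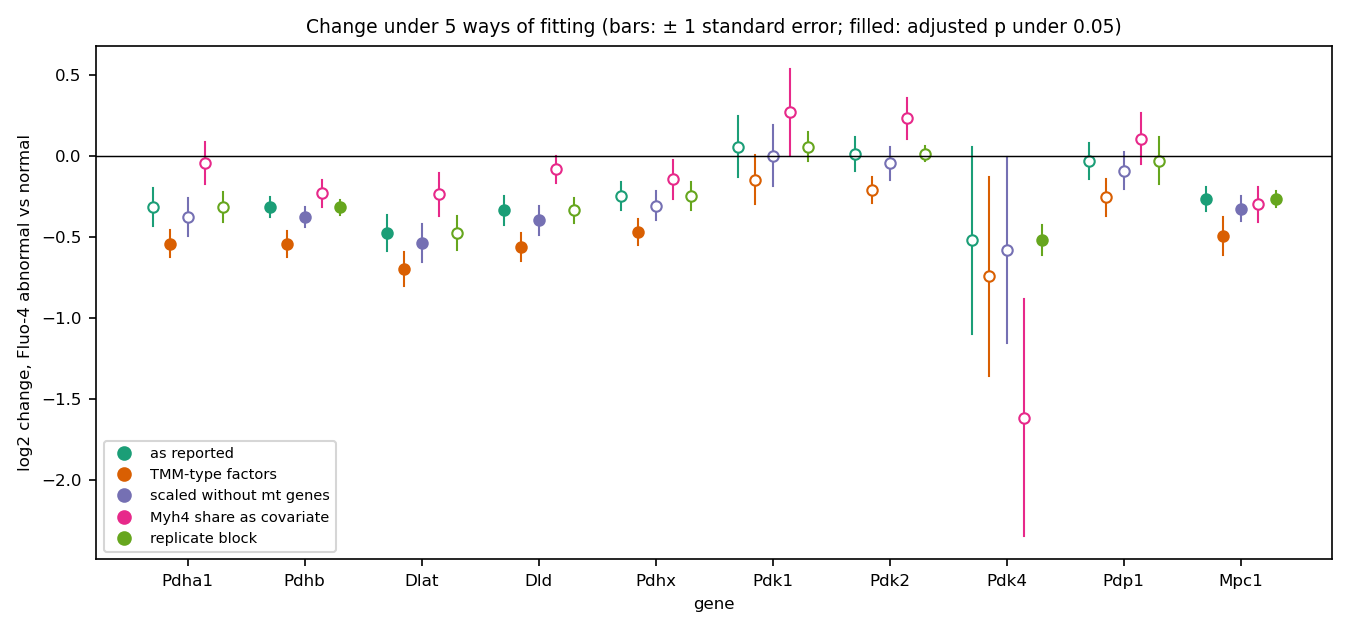
Log2 change between Fluo-4 abnormal and Fluo-4 normal fibers (y axis) for each gene under 5 ways of fitting, with bars of ± 1 standard error and filled points at adjusted p under 0.05. The 5 subunits are below 0 in all 5 fits, Pdk2 lies between -0.21 and 0.23, and the bars of Pdk4 are short only with the replicate block.

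Genes that work with the complex were counted from lists of the pathway, and each count stands beside the 7.36% of all genes that rose and the 1.99% that fell between the aged groups. Of 14 genes for lipoylation, which arms the E2 subunit, and for the iron-sulfur clusters it needs, 4 fell and 0 rose between the aged groups, with a median log2 change of -0.07. Bola3, an iron-sulfur cluster factor, fell by 0.43 (SE 0.09, adjusted p = 0.012), and Glrx5, a glutaredoxin of the same route, fell by 0.29 (SE 0.07, adjusted p = 0.027). Of 3 thiamine genes tested, none of which passed (limma, 0 calls), the transporter Slc19a2 had the smallest p, at 4.96 ± 2.30 TPM in Fluo-4 normal and 2.24 ± 0.32 TPM in Fluo-4 abnormal fibers (adjusted p = 0.053).

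The 2-oxoglutarate and branched-chain complexes are built like pyruvate dehydrogenase, and their genes were listed together with those of the glycine cleavage system, which is not. Of the 11 genes of this list that were tested, 1 fell and 0 rose, beside 1.99% and 7.36% of all genes, with a median of -0.06. The 1 was Mrps36, which links E3 to the 2-oxoglutarate complex, at 198 ± 19.6 TPM in Fluo-4 normal and 144 ± 13.2 TPM in Fluo-4 abnormal fibers (log2 change -0.46 ± 0.08 SE, adjusted p = 0.0044). Bckdk, the kinase of the branched-chain complex, was at 143 ± 13.3 and 122 ± 6.80 TPM and did not pass (adjusted p = 0.067).

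Other routes of pyruvate moved in both directions, with 3 genes higher and 3 lower of 13 tested, beside 7.36% and 1.99% of all genes. Me3, a mitochondrial malic enzyme, was at 80.0 ± 3.17 TPM in Fluo-4 normal and 60.6 ± 3.21 TPM in Fluo-4 abnormal fibers (adjusted p = 0.0029). Me1, the cytosolic malic enzyme, was at 142 ± 14.6 TPM in young, 88.2 ± 18.5 TPM in Fluo-4 normal and 153 ± 27.3 TPM in Fluo-4 abnormal fibers. It was higher in Fluo-4 abnormal than in Fluo-4 normal fibers by 0.79 ± 0.15 (SE, adjusted p = 0.0079) and lower in Fluo-4 normal than in young fibers (-0.70 ± 0.15, adjusted p = 0.048).

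Of 13 factors known to act on Pdk genes, 1 rose and 1 fell, beside 7.36% and 1.99% of all genes. Esrrg, an estrogen-related receptor, was at 2.26 ± 0.842 TPM in Fluo-4 normal and 0.682 ± 0.206 TPM in Fluo-4 abnormal fibers (log2 change -0.93 ± 0.18 SE, adjusted p = 0.0082). Nr3c1, the glucocorticoid receptor, was at 28.1 ± 6.29 and 38.5 ± 2.28 TPM (0.46 ± 0.14, adjusted p = 0.049). Of 15 fatty-acid genes known as PPAR targets, 6 fell and 0 rose, with a median of -0.32 against 0.10 for all genes. In Fluo-4 normal against young fibers 3 of them rose and 0 fell, beside 0.561% and 0.589% of all genes (median 0.23). In Fluo-4 abnormal against young fibers 1 rose and 2 fell, beside 6.09% and 2.41% of all genes (median -0.20). Acadm and Acadl, dehydrogenases of fatty acid oxidation, fell by 0.70 (SE 0.09, adjusted p = 0.00089) and 0.68 (SE 0.10, adjusted p = 0.0023) between the aged groups. Against young fibers, Acadm and Acadl were 0.39 and 0.48 higher in Fluo-4 normal samples (limma, adjusted p = 0.061 and 0.042). In Fluo-4 abnormal samples they differed from young by -0.31 and -0.20 (adjusted p = 0.057 and 0.28).

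Of 10 genes known as targets of hypoxia-inducible factors, 2 rose and 1 fell, beside 7.36% and 1.99% of all genes. Slc2a1, a glucose transporter, was at 4.15 ± 1.55 TPM in Fluo-4 normal and 8.78 ± 2.89 TPM in Fluo-4 abnormal fibers (adjusted p = 0.030), and Egln3, an oxygen-sensing hydroxylase, at 20.8 ± 6.33 and 9.53 ± 3.82 TPM (adjusted p = 0.026). Of 3 mitochondrial sirtuins, Sirt3, a deacetylase, fell by 0.62 (SE 0.13, adjusted p = 0.012), and Sirt5 was at 10.0 ± 1.90 and 8.16 ± 1.60 TPM (adjusted p = 0.35).

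The genes whose levels followed 3 members most closely were found from log2(TPM + 1) centred over the 12 samples, among 5993 genes of at least 5 TPM, as a description. For Pdk4 these were Ucp3, a mitochondrial uncoupling protein, Plin5, a lipid droplet protein, and Fkbp7, with root mean square differences of 0.42, 0.64 and 0.64 on the log2 scale, where Pdk4 itself had an SD of 0.95. Among those of Pdk2 were Mapkapk5 (0.06) and Cyb5d1 (0.07). For Pdha1 they were Tagap1 (0.10), Rab3ip (0.10) and Lrpprc (0.10), the last a factor for mitochondrial RNA.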

How the data were processed

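RNA-seq of isolated myofibers was used, with 12 samples in 3 groups of 4. The authors purified RNA with TRIzol, made libraries from 10 ng with the SMART-Seq v4 kit, mapped them with DRAGEN 4.3 on the GRCm39 genome and deposited 1 table of TPM per sample. Each table had 55487 lines for 55367 gene symbols, and 114 symbols on several lines were summed. Counts were not used here, so the depth and its precision are unknown. Because the labels name no cultures or animals, p-values measure only the spread between these samples, which may be technical.

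Values were transformed to log2(TPM + 1), and limma 3.58.1 in R 4.3.3 was run with the 3 groups in 1 model and a trend on mean expression, with Benjamini-Hochberg adjustment over 14428 protein-coding and mitochondrially-encoded genes with a mean of at least 0.02 TPM in 1 group. On simulated data with 200 changed genes, 97% of those changed 2-fold between the aged groups and 99% of those changed 4-fold were recovered. Of the calls on the simulated data, 5.77% were false. The simulated noise was independent between samples, so this share cannot be taken as that of the calls on the deposited values. Recovery of genes changed less than 2-fold was not tested, and all members that passed differed by less than 2-fold. Replicate numbers come from the sample titles. Deviations from the group means of aged samples with the same number correlated at 0.30 to 0.44 (4 pairs), against -0.36 to 0.23 for different numbers, and a fit with the number as a block was therefore run on the 8 aged samples. Alternatives were TMM-type factors (trimming 30% of ratios and 5% of levels), scaling that leaves out mitochondrially-encoded genes, a filter of 0 or 5 TPM, a pseudocount of 0.1, all listed genes, only the 2 groups compared, sample weights, the Myh4 share of myosin as a covariate, leaving out each sample, and the block, also with TMM-type factors (added after the data were seen).

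Genes named are the 10 members, 4 other regulators, the 2 genes with the smallest p between the aged groups in each pathway list, and the 3 genes closest to Pdha1, Pdk2 and Pdk4, except for 2 genes that are not reported here. The members, lists and tests were chosen with earlier results of these data known. Coordinates are from GENCODE vM39 (GRCm39), promoters from RefSeq (GRCm38.p6), and BLAST 2.17.0 was used to look for copies of the transcripts over at least 200 bases. Exons shared with genes of the opposite strand were counted for each member.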

Additional observations from a re-analysis of the deposited data

Results flagged for a closer look

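Within groups of 4, 51 sets of values were screened for a sample that stands apart, which chance finds in about 1 of 20. Of these, 2 were found, both in young replicate 2. Its Dlat level was the lowest of the young samples (87.3 TPM, against 94.6 to 95.7 TPM in the others), with a gap of 0.868 of the group's range. Its log2 ratio of Pdhx to Dlat was the highest (-0.65, against -0.95 to -0.91), with a gap of 0.893 of the range. Without this sample the calls of Dlat did not change in any comparison. Young replicate 2 also had the highest level of Acta2, a smooth muscle marker, at 37.1 TPM, and a link to Dlat was not tested.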

How the results depend on the processing

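Over 23 alternatives, 532 of 650 log2 changes of the 10 genes kept their direction and side of the threshold, 66 no longer passed, 18 newly passed and 34 changed sign. Between the aged groups 4 genes passed as reported, 1 with only these groups in the fit, 0 with the Myh4 share added to the model, 1 to 4 when 1 sample was left out. The count was 1 without Fluo-4 normal replicate 2 or Fluo-4 abnormal replicate 4, and 2 without Fluo-4 abnormal replicate 2 or 3. Between Fluo-4 abnormal and young fibers 5 passed, 3 without a filter, 2 with all listed genes, 3 with the Myh4 share, and 2 to 6 with 1 sample left out. Between Fluo-4 normal and young fibers 0 passed, 1 (Pdp1) with TMM-type factors, a filter of 5 TPM, only these groups or sample weights, and 0 to 1 with 1 sample left out. The replicate block gave 3 of 10 called, and called 1150 of all 14428 genes, against 1349 without it. Together with TMM-type factors 6 of 10 were called, all lower (all 5 subunits and Pdk4), where 335 of all genes fell and 150 rose. Between young and aged samples the same numbers correlated at -0.08 to 0.23 (Fluo-4 normal) and 0.0049 to 0.18 (Fluo-4 abnormal), so they were not paired.

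Changes of sign were all in values that did not pass. Between the aged groups, Pdk1 was -0.15 and Pdk2 -0.21 with TMM-type factors, with or without the block, Pdk1 was -0.0022 and Pdk2 -0.024 with sample weights, Pdk2 was -0.045 without mitochondrially-encoded genes and Pdp1 0.11 with the Myh4 share. With 1 sample left out, Pdk1 ranged from -0.086 to 0.19, Pdk2 from -0.086 to 0.092 and Pdp1 from -0.13 to 0.078. Against young fibers, the Myh4 share gave 0.044 for Pdk2 and -0.32 for Pdk4 in Fluo-4 abnormal and -0.11 for Dld in Fluo-4 normal fibers, and TMM-type factors gave 0.018 for Pdha1 and 0.041 for Pdhb in Fluo-4 normal fibers, where scaling without mitochondrially-encoded genes gave 0.019 for Pdhb. With 1 sample left out, Fluo-4 abnormal values ranged from -0.13 to 0.0075 (Pdk2), -0.12 to 0.63 (Pdk4) and -0.055 to 0.013 (Mpc1), and Fluo-4 normal values from -0.11 to 0.068 (Pdha1), -0.051 to 0.012 (Pdhb), -0.037 to 0.10 (Dld) and -0.13 to 0.017 (Pdk2). The causes were not tested. Without read counts, what depth limits could not be computed.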
